A study of Mus musculus with 20 samples.

Results

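Reg3a, Reg3b, and Reg3g, the genes of the Reg3 antibacterial lectins, were examined in the proximal colon (PC) of mice fed with resistant potato starch (RPS). They were chosen by name, as the 3 members of this family among the 12701 genes counted, and Reg3d, which lies beside them, was not analysed here. All mice were C57BL/6, were placed on the Total Western Diet (TWD) at weaning, at 3 weeks of age, ate it for 6 weeks, and then ate the TWD with 0, 2, 5, or 10% raw potato starch by weight for 3 more weeks. Each diet had 5 RNA sequencing libraries, made from a 1-cm segment of the whole PC wall, and every group shared the strain and the Western diet. In such bulk tissue, fewer cells of a type and less RNA per cell cannot be told apart.

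Reg3 proteins are small C-type lectins that epithelial cells of the gut secrete into the lumen. Reg3g binds peptidoglycan and acts mainly on Gram-positive bacteria, and it helps to keep bacteria away from the surface of the small intestine. Reg3b is also antibacterial and is known as pancreatitis-associated protein, because injured pancreas makes it too. The role of mouse Reg3a is less well described. Bacteria induce Reg3b and Reg3g through MyD88, the adaptor of Toll-like receptors, and through IL-22, a cytokine of lymphoid cells that acts on epithelium by way of the transcription factor STAT3. Reg3 expression is known to be high in the small intestine and low in the unchallenged colon.

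On the mouse assembly GRCm39 the 3 genes lie within 98.2 kb of chromosome 6, Reg3b (ENSMUSG00000071356) at chr6:78347640-78350455 and Reg3a (ENSMUSG00000079516) at chr6:78357692-78360810 on the plus strand, and Reg3g (ENSMUSG00000030017) at chr6:78443246-78445859 on the minus strand. Each is protein-coding, and the canonical transcript of each has 6 exons. Reg3d, Reg2, and Reg1 lie between Reg3b and Reg3g, and of these only Reg1 was among the genes counted. None of the 3 genes overlaps another gene, and 0 of the 50-base windows of their transcripts, which is the length of a read, occurs in a transcript of another gene. Their longest open reading frames, of 528, 528, and 525 bases for Reg3a, Reg3b, and Reg3g, were 76.6% identical between Reg3b and Reg3g, 74.1% between Reg3a and Reg3b, and 73.8% between Reg3a and Reg3g. The 250 bases before the start site are shown because the 3 genes moved together in the libraries. They come from the RefSeq promoter table (build GRCm38.p6) and were placed on GRCm39 by exact match, at chr6:78347618-78347867 (plus strand) for Reg3b, chr6:78445858-78446107 (minus strand) for Reg3g, and chr6:78357442-78357691 (plus strand) for Reg3a. Capitals mark TTCNNNGAA, a paired half-site bound by STAT factors, TATAAA, the core of the TATA box, and TTTATNG, a core bound by Cdx factors of the intestine, each searched on both strands.
Reg3b: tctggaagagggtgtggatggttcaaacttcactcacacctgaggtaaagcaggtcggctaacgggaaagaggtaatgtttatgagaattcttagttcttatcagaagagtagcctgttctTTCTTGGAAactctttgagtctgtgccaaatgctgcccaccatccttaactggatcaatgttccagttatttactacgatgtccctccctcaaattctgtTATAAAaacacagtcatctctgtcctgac
Reg3g: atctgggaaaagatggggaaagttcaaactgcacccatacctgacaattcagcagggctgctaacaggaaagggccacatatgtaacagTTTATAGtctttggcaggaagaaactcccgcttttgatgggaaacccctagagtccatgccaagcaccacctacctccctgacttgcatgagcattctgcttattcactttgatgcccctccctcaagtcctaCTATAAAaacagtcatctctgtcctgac
Reg3a: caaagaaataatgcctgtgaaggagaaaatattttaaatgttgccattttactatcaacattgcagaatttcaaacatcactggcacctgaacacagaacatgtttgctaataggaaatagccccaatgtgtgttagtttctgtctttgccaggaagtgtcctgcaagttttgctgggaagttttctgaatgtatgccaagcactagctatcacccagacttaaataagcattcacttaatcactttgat

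The Reg3b and Reg3g promoters were 68.9% identical in a global alignment and shared their last 20 bases without a change. TATAAA stood at positions -29 to -24 from the start site of Reg3b and at positions -27 to -22 from that of Reg3g, where it overlaps the reverse complement of TTTATNG. The Reg3a promoter was less alike, with 47.9% identity to that of Reg3b and 50.5% to that of Reg3g, and held none of these motifs. A second match to TTTATNG in Reg3g, which contains the reverse complement of TATAAA, lay at positions -161 to -155. TTCNNNGAA was found once, in Reg3b at positions -129 to -121. TGANTCA, the AP-1 core, had 0 matches in the 3 promoters. Among 9468 promoters of counted genes, 6.56% held TATAAA, 5.70% TTCNNNGAA, 6.25% TTTATNG, and 4.29% TGANTCA. The start of the canonical GENCODE transcript of Reg3b lies 24 bases upstream of the RefSeq start used here. The annotated span of the Reg3b gene, which starts at 78347640, covers most of its window from 78347618 to 78347867. These matches describe letters in a window and were not tied to any measurement.

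The 20 libraries held 20581013 to 35083751 counts. The floor of 3 counts stood at 0.0855 to 0.146 CPM, which is the count scaled to a fixed library total. This floor allows at most for error in counting, and not for the spread between libraries. The label numbers of 3 libraries, 2% RPS replicate 5 and 10% RPS replicates 4 and 5, lay outside the run of the other 17, and results were also computed without these. The labels do not say that libraries shared a cage or litter, so p-values measure the spread between these libraries. Levels are counts divided by DESeq2 size factors (normalised counts), and a gene counted as changed at a DESeq2 adjusted p of 0.05 or less with a fold of 1.5 or more.

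Reg3b was the most abundant of the 3 genes and was higher at 5 and 10% RPS than on the TWD alone. On the 0% RPS diet its normalised counts in replicates 1 to 5 were 2114, 553, 8323, 2261, and 1095. On 2% RPS they were 25600.3, 21359, 1723, 5714, and 127115, so 1 library was as high as any in the study and replicates 3 and 4 lay within the 0% RPS range. On 5% RPS they were 113614, 114161, 120543, 8941, and 19347. These libraries formed a cluster of 3 near the top of the scale and a pair far below it, yet the lowest was above the highest 0% RPS library. On 10% RPS they were 25929, 33461, 47096, 71967, and 60937, with no overlap with 0% RPS and no library as high as the 5% RPS cluster. The share of all genes without overlap between these diets is not reported here. Reg3b rose by 4.71 ± 0.90 on the log2 scale (SE, 26.3-fold, adjusted p = 0.000264 with DESeq2) at 5% RPS and by 4.06 ± 0.90 (16.7-fold, adjusted p = 0.00137) at 10% RPS. All 3 Reg3 genes passed at both levels, where 0.334% and 0.536% of all genes tested were called higher. At 2% RPS the log2 difference of Reg3b was 3.66 ± 0.90, the largest of 12576 genes, with an unadjusted p of 5.21e-05 and an adjusted p of 0.164 in DESeq2. None of the 3 Reg3 genes passed there, and 0.0239% of genes were called higher. All 3 had an unadjusted p under 0.05 in DESeq2 and in edgeR. So had 1093 of 12561 genes in DESeq2 and 1000 of 12366 in edgeR. Without 0% RPS replicate 3, the 2% RPS difference of Reg3b was 4.59 (adjusted p = 0.000403), and it passed also without 0% RPS replicate 1 (adjusted p = 0.0219), 2% RPS replicate 3 (0.0220), or 2% RPS replicate 4 (0.0259). Without 2% RPS replicate 5 it was 2.24.

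Reg3g, the lectin that targets Gram-positive bacteria, followed Reg3b at a lower level. Its normalised counts on 0% RPS were 316, 239, 2362, 308, and 128, and replicate 3 stood above the others as it did for Reg3b. On 2% RPS they were 3871, 2471, 279, 798, and 14926. Replicate 5 was again the highest and replicate 3 the lowest of that diet. On 5% RPS they were 18701, 19545, 21349, 1425, and 1490.2, the same cluster of 3 and low pair as for Reg3b, and here the pair lay under the highest 0% RPS library. On 10% RPS they were 3852, 5691, 7613, 8542, and 11165, all above the 0% RPS range, a separation whose share over all genes is not reported here. Reg3g rose by 4.22 ± 0.98 on the log2 scale (SE, 18.6-fold, adjusted p = 0.00481 with DESeq2) at 5% RPS and by 3.46 ± 0.98 (adjusted p = 0.0190) at 10% RPS. At 2% RPS the log2 difference was 2.74 ± 0.98 (adjusted p = 0.421). The 10% RPS call was lost in 4 of 10 fits that left out 1 library, those without 0% RPS replicate 4 (adjusted p = 0.0523) or 5 (0.0579) and those without 10% RPS replicate 3 (0.0665) or 5 (0.0841), and without the 3 libraries outside the number run (difference 3.09, adjusted p = 0.109). Without 0% RPS replicate 3 the differences were 4.17, 5.66, and 4.89 on the log2 scale at 2, 5, and 10% RPS, and the first of these then passed (adjusted p = 0.00798).

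Reg3a had few reads but moved in the same direction. Its normalised counts on 0% RPS were 17.6, 1.04, 20.9, 20.7, and 22.8, where replicate 2 had a single read. On 2% RPS they were 37.2, 40.8, 16.3, 25.7, and 117. Replicate 5 was the highest and replicate 3 the lowest of that diet for Reg3a too. On 5% RPS they were 67.8, 122, 106, 36.7, and 40.9, and on 10% RPS 43.8, 92.2, 68.6, 84.3, and 75.4. Neither diet overlapped 0% RPS, though the share of all genes without such overlap is not reported here. Replicates 4 and 5 were again the low pair at 5% RPS. Reg3a rose by 2.17 ± 0.51 on the log2 scale (SE, 4.49-fold, adjusted p = 0.00577 with DESeq2) at 5% RPS and by 2.13 ± 0.51 (4.38-fold, adjusted p = 0.00358) at 10% RPS, and its difference at 2% RPS was 1.51 ± 0.52 (adjusted p = 0.40). The 5% RPS call was lost without 5% RPS replicate 2 (adjusted p = 0.0629). The 3 rises depended on the tool: edgeR's quasi-likelihood test gave nearly the same fold changes but adjusted p-values of 0.0645 to 0.106 at 5% RPS and 0.0557 to 0.0918 at 10% RPS, so 0 of 3 Reg3 genes passed. Among all genes edgeR called 0% higher at 2% RPS, 0.0566% higher at 5% RPS and 0.226% at 10% RPS. All 6 Reg3 tests at the last 2 levels had an unadjusted edgeR p under 0.05, as had 1962 and 2230 of 12366 genes in all.

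**Figure D1:**
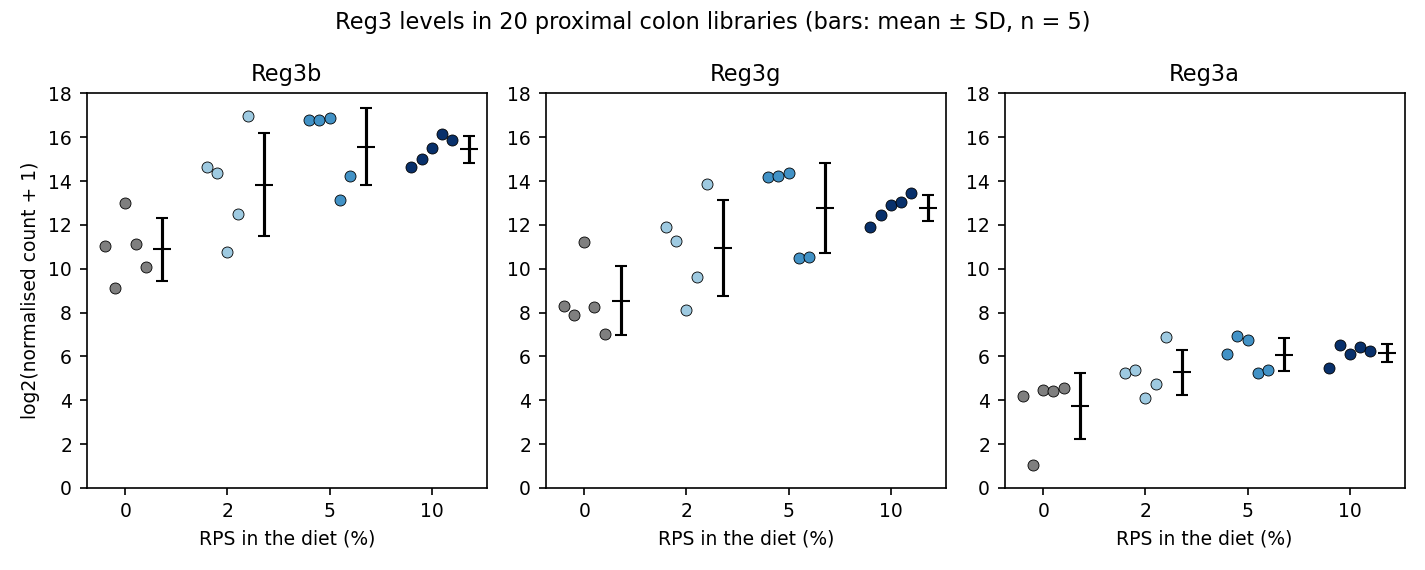
Levels of Reg3b, Reg3g, and Reg3a as log2(normalised count + 1) (y axis) in each of the 20 libraries, by percent RPS in the diet (x axis, not to scale). Points are libraries in order of replicate number, and bars give the mean ± SD of 5 libraries. The SD narrowed to 0.61, 0.59, and 0.41 at 10% RPS for the 3 genes in that order.

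Between libraries of the same diet the Reg3 genes varied more than nearly all other genes. The pooled within-diet SD of the log2 level was 1.73 for Reg3g, 1.67 for Reg3b, and 1.02 for Reg3a, which ranked 41, 47, and 129 among 12348 genes, where the median SD was 0.154. For Reg3b the highest library exceeded the lowest 15.1-fold at 0% RPS, 73.8-fold at 2% RPS, 13.5-fold at 5% RPS, and 2.78-fold at 10% RPS. Reg3g spanned 18.5-, 53.5-, 15.0-, and 2.90-fold in the same order. For Reg3a the span was 21.9-fold at 0% RPS, where it rests on the library with a single read, and 7.18-, 3.33-, and 2.10-fold in the starch diets. The differences in spread between diets were not tested.

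Of all counts in a library, Reg3b took 0.00210 to 0.0315% on 0% RPS, 0.00636 to 0.463% on 2% RPS, 0.0327 to 0.447% on 5% RPS, and 0.0939 to 0.260% on 10% RPS. By its mean normalised count Reg3b ranked 1862 among all genes on 0% RPS, 51 on 2% RPS, 18 on 5% RPS, and 36 on 10% RPS. Reg3g moved from rank 7209 on 0% RPS to 1070, 244, and 540 on 2, 5, and 10% RPS. Reg3a stayed among the least abundant genes, between rank 12284 on 0% RPS and 11722 on 5% RPS. Ranks compare counts without regard to gene length.

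The starch diets were then compared with each other to see whether the level of RPS mattered. None of the 3 Reg3 genes differed at the threshold in any of these comparisons with DESeq2 or edgeR. Among all genes DESeq2 called 0% at 5 against 2% RPS, 0.0557% at 10 against 2% RPS, and 0.00796% at 10 against 5% RPS. None of the 3 Reg3 genes had an unadjusted p under 0.05. In DESeq2, 359, 1131, and 516 of 12561 genes had one in these comparisons, in the same order. Between 5 and 10% RPS the log2 difference of Reg3b was -0.65 (95% interval -2.43 to 1.12), that of Reg3g -0.76 (-2.68 to 1.16), and that of Reg3a -0.04 (-1.0 to 0.93). Against 2% RPS, 5% RPS was higher by 1.05 for Reg3b (-0.72 to 2.83), 1.48 for Reg3g (-0.44 to 3.40), and 0.65 for Reg3a (-0.32 to 1.63). At 10 against 2% RPS the differences were 0.40 for Reg3b (-1.37 to 2.17), 0.72 for Reg3g (-1.20 to 2.64), and 0.62 for Reg3a (-0.36 to 1.59). Without 2% RPS replicate 5 the differences of 5% from 2% RPS were 2.47 for Reg3b and 2.75 for Reg3g, and still none passed.

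Across all 4 diets, Reg3a rose with the percent of RPS by 0.17 ± 0.05 log2 units for each 1% (adjusted p = 0.0354 with DESeq2, 0.130 with edgeR), where 2.4% of genes tested were called rising by DESeq2 and 0.752% by edgeR. The slopes were larger but more variable for Reg3b, at 0.26 ± 0.09 (adjusted p = 0.0928), and Reg3g, at 0.28 ± 0.10 (adjusted p = 0.0736). Neither passed. Without 2% RPS replicate 5 the slope was 0.41 for Reg3b (adjusted p = 0.000773) and 0.38 for Reg3g (adjusted p = 0.00512). Leaving out 10% RPS replicate 1 also let Reg3b (0.31, adjusted p = 0.0411) and Reg3g (0.33, adjusted p = 0.0422) pass, as did leaving out 10% RPS replicate 2 for Reg3b (0.31, adjusted p = 0.0494). The Reg3a trend failed in 7 of 20 such fits, with adjusted p-values of 0.0541 to 0.0886, and over the starch diets alone its slope was 0.07 (adjusted p = 0.705).

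Reads per length allow the 3 genes to be compared. By the length of the canonical transcript (825, 789, and 778 bases for Reg3a, Reg3b, and Reg3g), mean levels on 0% RPS were 3637 normalised counts per kb for Reg3b, 862 for Reg3g, and 20.1 for Reg3a. On 2% RPS they were 46010.3, 5744, and 57.5, on 5% RPS 95464, 16069, and 90.7, and on 10% RPS 60682, 9476, and 88.3. By mean level Reg3b was the most abundant of the 3 transcripts on every diet, followed by Reg3g. With all annotated exons as the length (1126, 1435, and 2153 bases) the order was the same.

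The ratio of Reg3b to Reg3g showed how closely the pair moved together. With 1 added to each count it was 2.30 to 12.97 over the 20 libraries, with a median of 6.44, while the count of Reg3b itself ranged from 531 to 149107. On 10% RPS it was 6.73, 5.88, 6.19, 8.42, and 5.46, and on 5% RPS 6.08, 5.84, 5.65, 6.27, and 12.97. The high and low libraries of the 5% RPS diet thus had similar ratios except for replicate 5. On 2% RPS it was 6.61, 8.64, 6.16, 7.15, and 8.52, and on 0% RPS 6.67, 2.30, 3.52, 7.32, and 8.52. Per kb of canonical transcript the median ratio was 6.35, and per kb of all exons 9.66. Compared with 0% RPS, the log2 ratio differed by 0.53 at 2% RPS (p = 0.278 in a two-sided exact permutation test), 0.45 at 5% RPS (exact p = 0.317), and 0.35 at 10% RPS (exact p = 0.429), and the adjusted p-values over 9 tests were 0.408, 0.408, and 0.429.

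The ratios to Reg3a were higher on the starch diets in their means, but did not pass the test. The ratio of Reg3b to Reg3a, with 1 added to each count, had medians of 113 on 0% RPS, 507 on 2% RPS, 927 on 5% RPS, and 675 on 10% RPS, and it ran from 46.0 to 1657 over all libraries. Its log2 value was 2.15 higher at 10% RPS than at 0% RPS (p = 0.0159 in the same exact test) and 2.35 higher at 5% RPS (exact p = 0.0238), but over the 9 ratio tests both had an adjusted p of 0.107. At 2% RPS it was 1.42 higher (exact p = 0.119, adjusted 0.229). The ratio of Reg3g to Reg3a was 0.89, 1.89, and 1.80 log2 units higher at 2, 5, and 10% RPS, with exact permutation p-values of 0.413, 0.127, and 0.119 and adjusted values of 0.429, 0.229, and 0.229. With 5 libraries in each diet the smallest exact p is 0.00794. No ratio test passed, and on the 0% RPS diet the ratios to Reg3a rest on 1 to 26 reads of that gene. In 0% RPS replicate 2, Reg3b had 531 reads and Reg3a 1, a ratio whose exact 95% counting interval was 94.9 to 21012.

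**Figure D2:**
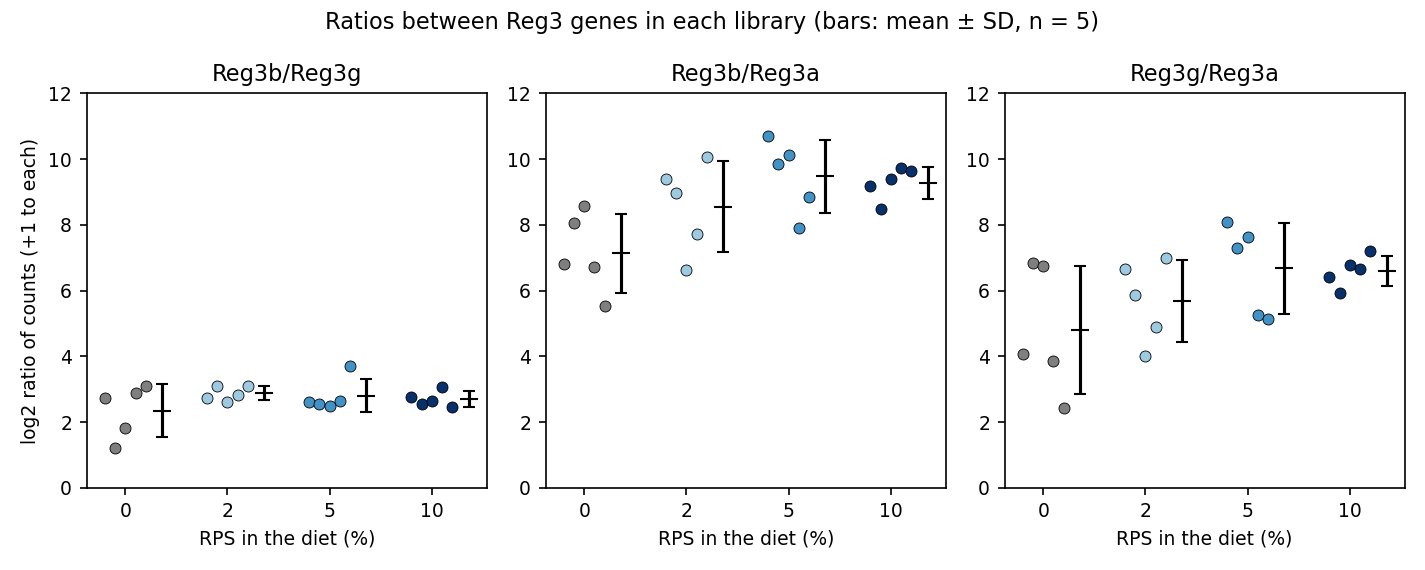
Ratios between the Reg3 genes as log2 of the ratio of counts with 1 added to each (y axis) in each library, by percent RPS (x axis, not to scale). Points are libraries, and bars give the mean ± SD of 5 libraries. The Reg3b/Reg3g log2 ratio ran from 1.20 to 3.70, with an SD of 0.50 over the 20 libraries. The SD was 1.38 for Reg3b/Reg3a and 1.48 for Reg3g/Reg3a.

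Over the 20 libraries the log2 levels of Reg3b and Reg3g had a Pearson r of 0.979 and a Spearman rho of 0.980 (permutation test with 100000 resamples, p = 1e-05 for each, the smallest they can give, adjusted p over 6 tests 2e-05 and 1.5e-05). With diet means taken out, so that only libraries of the same diet were compared, r was 0.957 and rho 0.968 (permutation p = 2e-05 and 1e-05, adjusted 3e-05 and 1.5e-05). Without the 2 libraries farthest from the median of Reg3b, r was 0.984 pooled and 0.936 within diets. On the log2 scale Reg3b changed by 1.02 for each unit of Reg3g in the pooled libraries and by 0.92 within diets. Thus the pair covaried between libraries of the same diet as well as over all diets.

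Reg3a followed less tightly. With Reg3b its pooled r was 0.898 and rho 0.947 (permutation p = 1e-05 each, adjusted 2e-05 and 1.5e-05), and within diets r was 0.768 and rho 0.732 (permutation p = 0.00049 and 0.0023, adjusted 0.000588 and 0.00276). With Reg3g its pooled r was 0.822 and rho 0.910 (permutation p = 1e-05 each, adjusted 2e-05 and 1.5e-05), and within diets r was 0.612 and rho 0.641 (permutation p = 0.0163 and 0.0093, adjusted 0.0163 and 0.0093). The last of these relations was the weakest: r was 0.465 without the 2 farthest libraries and 0.511 without 2% RPS replicate 5 (adjusted p = 0.0626). Without 0% RPS replicate 2, the library with a single Reg3a read, it was 0.808. For Reg3b with Reg3a within diets, r was 0.687 without the 2 farthest libraries. On the log2 scale Reg3b changed by 1.62 for each unit of Reg3a, and Reg3g by 1.43.

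**Figure D3:**
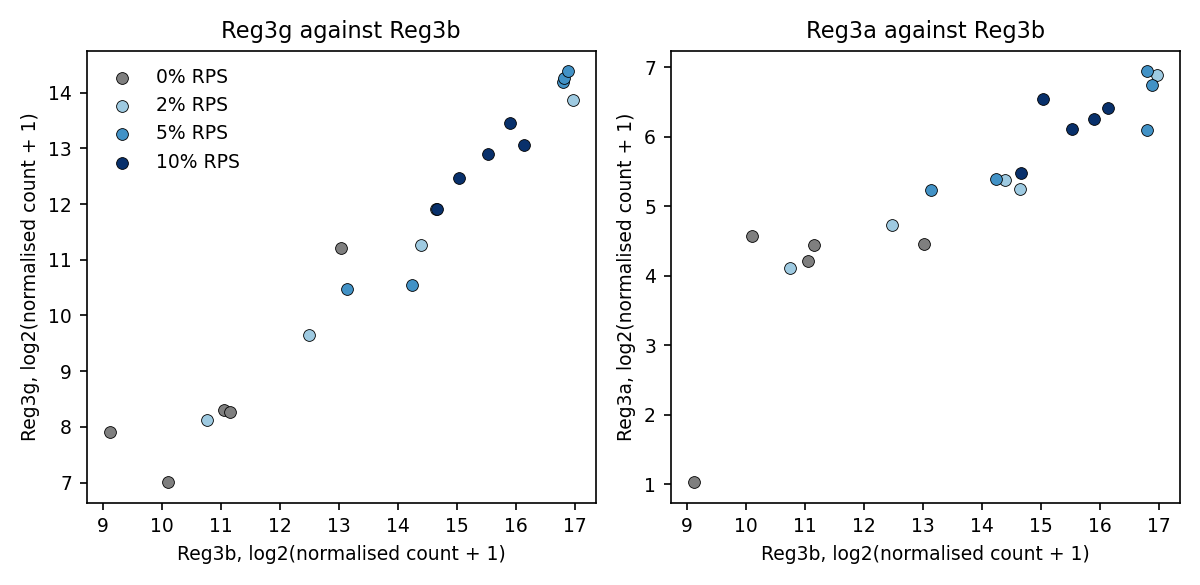
Reg3g (left) and Reg3a (right) against Reg3b, each as log2(normalised count + 1), in the 20 libraries, coloured by diet. Reg3g lay along a line over the whole range (r = 0.979), and Reg3a followed with a smaller slope apart from the 0% RPS library with a single read (r = 0.898).

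Many other genes varied with the Reg3 genes across libraries. In limma, with the log2 level of a Reg3 gene as covariate, 1692 of 12347 genes varied with Reg3b (13.7%), 1752 with Reg3g (14.2%), and 1185 with Reg3a (9.6%). With diet in the fit, 486 genes (3.94%) varied with Reg3b, 445 (3.6%) with Reg3g, and 933 (7.56%) with Reg3a. These numbers rest on a few libraries. Without 2% RPS replicate 5, the genes that varied within diets fell to 127 for Reg3b, 160 for Reg3g, and 562 for Reg3a, and without 0% RPS replicate 2 the Reg3a count was 248, that of Reg3b 743, and that of Reg3g 688. The 3 Reg3 genes are correlated, so the sets are not independent of each other.

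The genes most like Reg3b over the 20 libraries were Tpm3, a tropomyosin (r = 0.931), Prss27, a serine protease (0.931), Plac8 (0.929), and Mpi, mannose phosphate isomerase (0.915). Those most like Reg3g were Iqgap2, a scaffold of the actin cytoskeleton (0.946), Prss27 (0.937), Plac8 (0.930), and Tpm3 (0.919). For Reg3a they were Ms4a8a (0.920), Tmem238l (0.915), Ralgapa2, a subunit of a Ral GTPase-activating complex (0.907), and Serpinb1a, an inhibitor of neutrophil proteases (0.891). In limma each of these passed with and without diet in the fit, with adjusted p-values of 0.0177 or less. The normalised counts of Prss27 had a median of 51.8 on 0% RPS (34.4 to 105), 94.7 on 2% RPS (47.8 to 208), 166 on 5% RPS (75.0 to 372), and 126 on 10% RPS (97.0 to 229). Prss27 rose by 1.69 on the log2 scale at 5% RPS (adjusted p = 0.0117 with DESeq2) and by 1.38 at 10% RPS (adjusted p = 0.0330), and edgeR's adjusted p-values were 0.121 and 0.116.

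With diet means taken out, the genes most like Reg3b were Nasp, a histone chaperone (r = 0.912), Mybl2, a transcription factor of dividing cells (0.898), Tdg, a DNA repair glycosylase (0.897), and Rrm2, a subunit of ribonucleotide reductase (0.890). Those most like Reg3g were Rrm2 (0.931), Iqgap2 (0.925), Clca4b, of a family of chloride channel regulators (0.905), and Prss27 (0.883). Of these, Nasp, Mybl2, Tdg, and Rrm2 did not pass against 0% RPS at any starch level. Rrm2 had normalised counts of 298 to 665 on 0% RPS, 273 to 897 on 2% RPS, 311 to 1023 on 5% RPS, and 481 to 828 on 10% RPS, so it varied as widely within a diet as between diets. Clca4b rose at 5% RPS (2.67 on the log2 scale, adjusted p = 0.0138 with DESeq2, 0.115 with edgeR), and its difference at 10% RPS was 0.76 (adjusted p = 0.561). Whether reads were split between Clca4b and the similar Clca4a was not tested. For Reg3a the closest genes within diets were Amdhd2, an enzyme of amino sugar metabolism (0.913), Saa3, an acute-phase protein (0.896), Lpin3, a phosphatidate phosphatase (0.891), and Ccdc116 (0.891). Pooled over diets these were less alike, down to 0.351 for Lpin3. Without the 2 libraries farthest from the Reg3a median, the pooled r was 0.279 for Amdhd2, 0.688 for Saa3, -0.078 for Lpin3, and 0.472 for Ccdc116. On 0% RPS each of these genes had its lowest level in replicate 2, the library with a single Reg3a read. There the normalised counts were 585, 89.6, 1186, and 272, in the same order. Within-diet rho was 0.857, 0.863, 0.890, and 0.874, and within-diet r without that library was not computed.

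Genes that fell as the Reg3 genes rose were Tmt1a, a thiol methyltransferase (r = -0.906 with Reg3b and -0.845 with Reg3a), Natd1 (-0.871 with Reg3b and -0.899 with Reg3g), and Hps4, which serves the formation of lysosome-related organelles (-0.893 with Reg3g). Of all genes tested, DESeq2 called 0.103% lower at 5% RPS and 0.381% at 10% RPS. Tmt1a differed by -0.46 and -0.37 on the log2 scale (adjusted p = 0.00399 and 0.0186), which is under the fold threshold.

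**Figure D4:**
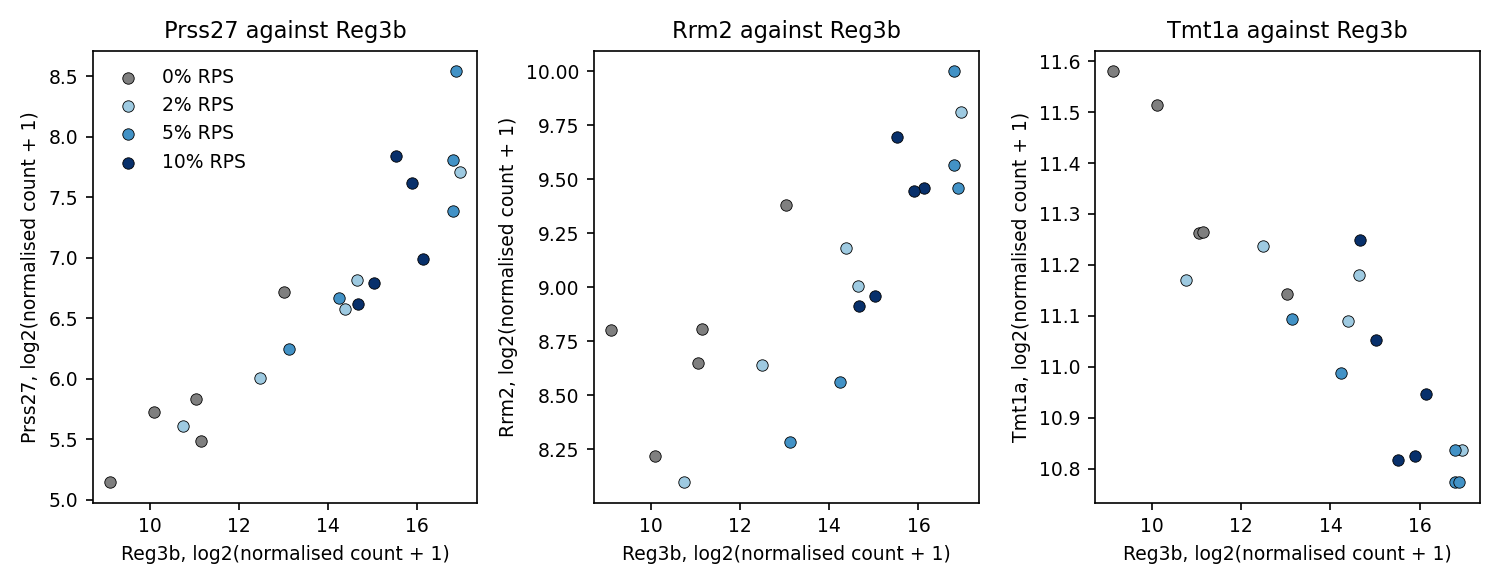
Prss27, Rrm2, and Tmt1a against Reg3b, each as log2(normalised count + 1), in the 20 libraries, coloured by diet. Prss27 rose with Reg3b (r = 0.931), Rrm2 rose with more scatter between diets (r = 0.789 pooled, 0.890 with diet means taken out), and Tmt1a fell (r = -0.906).

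The genes that lead from bacteria to Reg3 expression were then examined by role. The other counted Reg genes were Reg1, which neighbours Reg3g, and Reg4, a secreted lectin of the colon. Reg1 had normalised counts of 5.18 to 49.999 on 0% RPS, 11.7 to 46.0 on 2% RPS, 29.3 to 59.4 on 5% RPS, and 22.95 to 78.3 on 10% RPS, and its log2 differences of 1.32 and 1.45 at 5 and 10% RPS had adjusted p-values of 0.138 and 0.0648. It varied with Reg3b (r = 0.889 pooled and 0.767 within diets, limma adjusted p = 3.23e-05 and 0.0134). Reg4 showed a log2 difference of 0.89 at 10% RPS (adjusted p = 0.130) and an r of 0.183 with Reg3b. Of these 2 genes, 1 and 2 had an unadjusted DESeq2 p under 0.05 at 5 and 10% RPS, and edgeR called 0. Over all genes 2087 of 12561 and 2365 of 12321 had such a p.

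Of 12 ligands and inducing cytokines 2 were analysed, Il18 and Il33, and 0 changed at any level. Il22, a known inducer of Reg3 genes, was not analysed here. Il18 varied with Reg3b over all libraries (r = 0.684, limma adjusted p = 0.00878) but not at the threshold with diet in the fit (0.252), and its log2 difference at 5% RPS was 0.74 (adjusted p = 0.0899). Of 10 receptors 0 changed in DESeq2 or edgeR. An unadjusted DESeq2 p under 0.05 was found for 3, 2, and 2 of them at 2, 5, and 10% RPS. Over all genes it was found for 1093 of 12561, 2087 of 12561, and 2365 of 12321. The medians were -0.12, -0.13, and 0.00 on the log2 scale, beside -0.01, -0.01, and 0.00 over all genes. Il22ra1, a chain of the IL-22 receptor, had mean normalised counts of 479 ± 67.3 on 0% RPS, 431 ± 60.6 on 2% RPS, 417 ± 82.5 on 5% RPS, and 499 ± 109 on 10% RPS (SD, n = 5). Il10rb, its partner chain, stood at 1793 ± 53.2 and 1910.2 ± 94.8 on 0 and 10% RPS. Extl3, described as a receptor of Reg proteins, had log2 differences of -0.16 and -0.14 at 5 and 10% RPS (adjusted p = 0.261 and 0.306).

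The next list held 10 kinases, transcription factors, and inhibitors, of which none rose at the threshold in DESeq2 or edgeR. An unadjusted DESeq2 p under 0.05, in either direction, was found for 0, 2, and 4 of them at 2, 5, and 10% RPS. Over all genes it was found for 1093 of 12561, 2087 of 12561, and 2365 of 12321. Stat3, the factor that acts below the IL-22 receptor, had a log2 difference of 0.39 ± 0.11 at 10% RPS (adjusted p = 0.0190), under the fold threshold. It varied with Reg3b (r = 0.725, limma adjusted p = 0.00562, but 0.243 with diet in the fit). Socs3 varied with Reg3b in both fits (r = 0.760 pooled and 0.714 within diets, limma adjusted p = 0.00225 and 0.0193). Its log2 differences of 1.24 and 0.88 at 5 and 10% RPS did not pass (adjusted p = 0.319 and 0.464). Of this list 2 genes rose with Reg3b and 1 also with diet in the fit, beside 964 and 355 of 12347 genes in all. The medians of this list were -0.03, 0.04, and 0.03 at 2, 5, and 10% RPS. In the Toll-like receptor list 0 of 23 genes changed at any level in DESeq2 or edgeR. An unadjusted DESeq2 p under 0.05 was found for 2, 5, and 6 of them, beside the counts over all genes given above. The medians were -0.01, 0.04, and 0.10. Nfkbiz had a log2 difference of 0.51 at 10% RPS (adjusted p = 0.00959 with DESeq2, 0.0638 with edgeR), under the fold threshold. Of this list 3 genes rose with Reg3b and 0 with diet in the fit, beside 964 and 355 of 12347 genes in all. They were Tlr1 (r = 0.788, limma adjusted p = 0.00305), Tlr3 (0.762, 0.00368), and Nfkbiz (0.562, 0.0435). Myd88 itself had log2 differences of 0.14 and 0.06 at 5 and 10% RPS (adjusted p = 0.482 and 0.775).

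Epithelial targets of the IL-22 and STAT3 axis were examined next. Of 10 analysed, 4 rose at 5% RPS and 3 at 10% RPS with DESeq2, beside 0.334% and 0.536% of all genes, and none fell. The median log2 differences were 0.16, 0.73, and 0.53 at 2, 5, and 10% RPS, beside -0.01, -0.01, and 0.00 over all genes. At 2% RPS 0 passed, and 0 had an unadjusted DESeq2 p under 0.05, beside 1093 of 12561 genes in all. Duox2, the oxidase that makes hydrogen peroxide at the epithelial surface, had mean normalised counts of 2438 ± 938, 2937 ± 938, 5779.9 ± 2461, and 5818 ± 1095 (SD, n = 5) on 0, 2, 5, and 10% RPS, and rose by 1.25 on the log2 scale at 5 and at 10% RPS (adjusted p = 0.0119 and 0.00518). Duoxa2, its maturation factor, rose by 1.87 and 1.90 (adjusted p = 0.0394 and 0.0190). Fut2, which adds fucose to surface glycans, rose by 0.81 at both levels (adjusted p = 0.0325 and 0.0190), and Bcl3, a regulator of NF-kB, by 0.75 at 5% RPS (adjusted p = 0.0270). In edgeR 0 of the list passed at 5% RPS and Duox2 alone at 10% RPS (adjusted p = 0.0385). Of the 10 targets 7 rose with Reg3b in limma and 3 also with diet in the fit, beside 964 and 355 of 12347 genes in all. For Fut2 r was 0.853 pooled and 0.757 within diets (limma adjusted p = 0.0113 with diet in the fit). Saa3 (0.0413) and Dmbt1 (0.0293) also passed with diet in the fit, though neither changed against 0% RPS. Duox2 (0.136), Duoxa2 (0.275), and Bcl3 (0.418) did not pass with diet in the fit.

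The last list held other proteins tied to antibacterial defence, not all of them secreted. Of 18 analysed, 2 rose at 5% RPS, 2 at 10% RPS, and 0 at 2% RPS, beside 0.334%, 0.536%, and 0.0239% of all genes. At 2% RPS 7 of the 18 had an unadjusted p under 0.05, as had 1093 of 12561 genes in all, and edgeR called 0. The medians were 0.26, 0.31, and 0.25 on the log2 scale at 2, 5, and 10% RPS, beside -0.01, -0.01, and 0.00 over all genes. Lpo, lactoperoxidase, rose by 0.95 at 5% RPS (adjusted p = 1.27e-05) and 1.21 at 10% RPS (adjusted p = 2.59e-10), also with edgeR (adjusted p = 0.0335 and 0.00247). Plac8 rose by 0.61 at 5% RPS (adjusted p = 0.0151 with DESeq2, 0.115 with edgeR), and Sprr2a2, a small proline-rich protein with near-identical copies, by 0.85 at 10% RPS (adjusted p = 0.00578 with DESeq2, 0.0564 with edgeR). Each of these fold changes was smaller than those of the 3 Reg3 genes at the same level of RPS.

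**Figure D5:**
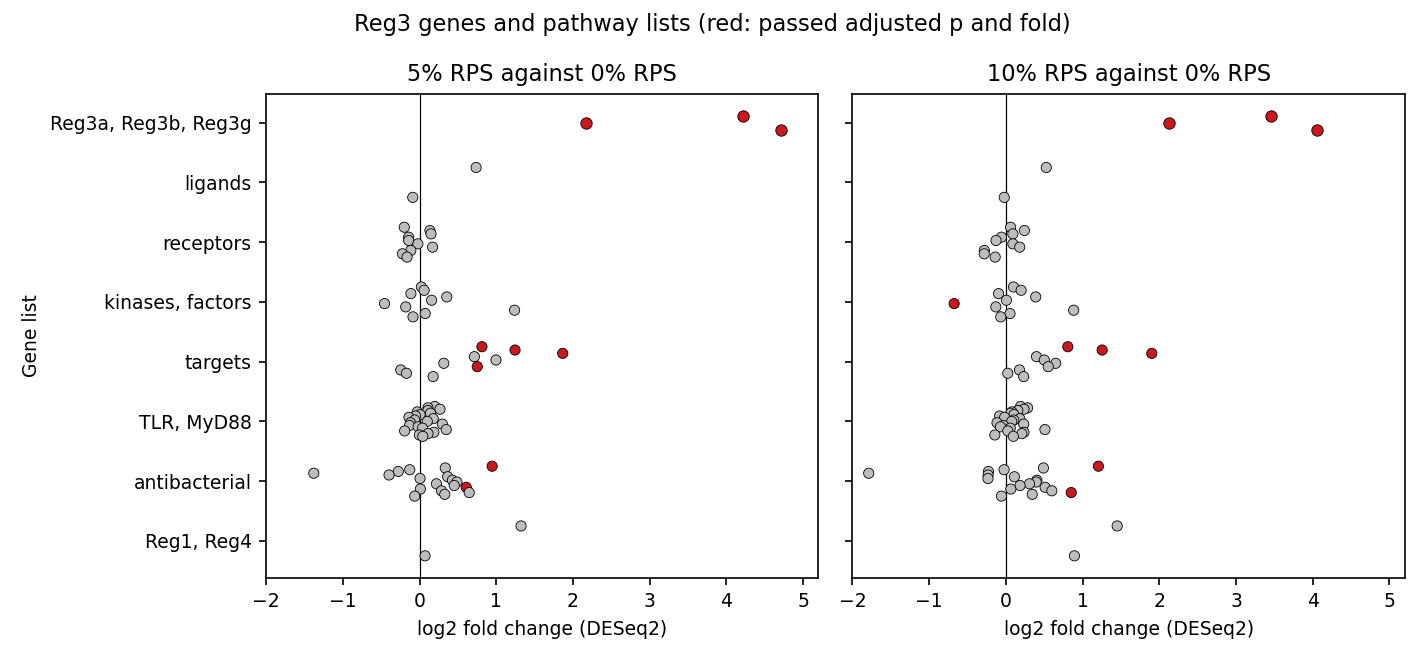
Log2 fold change from DESeq2 (x axis) of the Reg3 genes and of each analysed gene of the pathway lists (rows) at 5% RPS (left) and 10% RPS (right) against 0% RPS. Red points passed the adjusted p and fold thresholds; all 3 Reg3 genes lay to the right, at 2.13 to 4.71, followed by targets such as Duoxa2 at 1.87 and 1.90, while no receptor passed.

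The Reg3 genes were finally set beside markers of the cells in the segment. All 10 epithelium markers were detected in every library, and their summed normalised counts were 398038 to 484901 on 0% RPS, 419196.5 to 561189 on 2% RPS, 466298 to 500833 on 5% RPS, and 430610.0 to 536810.2 on 10% RPS. The mean log2 level of these markers rose with Reg3b (r = 0.691, rho = 0.660, permutation p = 0.00072 and 0.00181, adjusted over 12 tests 0.00432 and 0.0140) and Reg3g (r = 0.691, rho = 0.648, permutation p = 0.00071 and 0.00262, adjusted 0.00432 and 0.0140). Within diets r was 0.513 and 0.534 (permutation p = 0.0413 and 0.0212, adjusted 0.0991 and 0.0847). Reg3a had a pooled r of 0.491 (permutation p = 0.0294, adjusted 0.0883) and 0.157 within diets. Among these markers, Krt20 rose by 0.45 and 0.47 on the log2 scale at 5 and 10% RPS (DESeq2 adjusted p = 0.0476 and 0.0193). Epcam rose by 0.19 at 10% RPS (adjusted p = 0.00666). Both were under the fold threshold, and the other markers had adjusted p-values above 0.05. The score is thus not independent of diet. With this epithelium score in the fit the Reg3 differences were smaller but kept their direction. Reg3b then rose by 3.64 at 5% RPS (adjusted p = 0.0488 with DESeq2), and its difference at 10% RPS was 3.01 (adjusted p = 0.132). For Reg3g the differences were 3.17 and 2.42 (adjusted p = 0.137 and 0.340), and for Reg3a 1.85, with no adjusted p, and 1.83 (adjusted p = 0.152). The total count of a library had an r of 0.256, 0.297, and 0.265 with Reg3b, Reg3g, and Reg3a (adjusted permutation p = 0.412, 0.401, and 0.412).

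Among cells that express Reg3 genes elsewhere, few markers were analysed for pancreatic acinar and Paneth cells, but most were for small intestine enterocytes. Of 15 pancreatic acinar markers 2 were analysed, Cela1 and Clps, and their sum was 1188 to 2810.5 on 0% RPS and 1455 to 1558 on 5% RPS, where Reg3b was highest. The defining pancreatic proteases were not analysed here. Of 8 Paneth cell markers 3 were analysed, with sums of 139 to 232 on 0% RPS and 150.2 to 201 on 5% RPS, and of 9 small intestine enterocyte markers 7, with sums of 19671 to 34627 on 0% RPS, 30161 to 41212 on 5% RPS, and 28944 to 40498 on 10% RPS. Apoa1 of this last list, with a mean normalised count of 33.3, fell by 2.81 on the log2 scale at 10% RPS (adjusted p = 0.0189 with DESeq2, 0.104 with edgeR). No other gene of the 7 changed, and at 10% RPS 3 log2 differences lay above 0 and 4 below. Sums of 8 absorptive colonocyte markers ran from 168507 to 446048 on 0% RPS and from 375194 to 577415 on 5 and 10% RPS, those of 9 goblet cell markers from 489793 to 828468 and from 605779 to 1095909, and those of 10 smooth muscle markers from 161006 to 335902 and from 146707 to 269037. Of 9 leukocyte markers 3 were analysed, with sums of 467 to 1165 on 0% RPS and 483 to 858 on 5 and 10% RPS, and of 8 neutrophil markers none. The part of cell composition in the Reg3 differences was not tested beyond the fit with the epithelium score, which cannot separate it from diet.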

How the data were processed

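RNA from the PC of 20 mice was sequenced as single-end reads of 50 bases. The authors filtered the reads and mapped them to the mouse genome in CLC Genomics Workbench, and deposited raw counts per Ensembl gene, not normalised, for 12701 genes. The build was GRCm39 per the labels. The annotation, the use of strand, and the treatment of reads with several matches are not given in the sources used here, and reads that map to several genes could alter the counts of related genes.

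Counts were tested in DESeq2 1.42.0 (R 4.3.3), the tool and thresholds of the study, with diet as the only term over all 20 libraries in 1 fit, so all contrasts with 0% RPS share the same 5 controls. A second fit held percent RPS as a number. P-values were adjusted over all genes tested by the Benjamini-Hochberg method. Ratios were compared by exact permutation tests and correlations by permutation tests with 100000 resamples. Genes that vary with a Reg3 gene were found with limma 3.58.1 on log2(normalised count + 1), for genes whose mean normalised count was 10 or more. Alternatives were edgeR 4.0.16 (12366 genes kept), TMM factors, filters on low counts, other pseudocounts, an epithelium score of 10 markers as covariate, subsets of diets, and leaving out libraries. The DESeq2, edgeR, and limma steps were tested on simulated data. Gene positions were taken from GENCODE release 39, which matched 12682 gene IDs.

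The genes named are, for each Reg3 gene, the 4 with the highest r, the 4 with the highest r after subtraction of diet means, and the 2 with the lowest r, and in each list those changed against 0% RPS and the defining ligands and receptors. Other genes named from the lists (Reg1, Reg4, Il18, Il33, Socs3, Nfkbiz, Tlr1, Tlr3, Krt20, Epcam, and Dmbt1) were chosen after their values were seen. Some genes that this rule names are not reported here. The Reg3 genes and the lists were chosen with earlier results of these data known.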

Additional observations from a re-analysis of the deposited data

Results flagged for a closer look

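In 7 of 24 groups of 5 libraries tested, from the levels and ratios of the Reg3 genes in each diet, the highest or lowest library stood apart by Dixon's 95% criterion, where chance gives about 1 in 20 groups, or 1.2. On 2% RPS, replicate 5 was the high library for all 3 genes, with normalised counts of 127115 for Reg3b, 14926 for Reg3g, and 117 for Reg3a. On 0% RPS, replicate 3 was the high library for Reg3b (8323) and Reg3g (2362), and replicate 2 the low library for Reg3a (1.04, from a single read). On 5% RPS, replicate 5 had a log2 ratio of Reg3b to Reg3g of 3.70, above the other libraries of that diet. The levels were tested as normalised counts, which are skewed. On the log2 scale, tried after seeing the data, 1 of the 12 groups of levels met the criterion in place of 6, that of Reg3a on 0% RPS. The 3 genes are correlated, so these are not independent events, and their causes were not tested.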

How the results depend on the processing

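For the comparisons, trends, ratios, correlations, and gene counts, 145 of 172 values under other settings and 436 of 476 values with 1 library left out kept their direction and their side of the threshold (counts within 1.5 times). The causes of the exceptions were not tested. With edgeR the log2 differences of Reg3a, Reg3b, and Reg3g were 2.15, 4.71, and 4.21 at 5% RPS and 2.11, 4.05, and 3.45 at 10% RPS, and the Reg3a slope was 0.16, and none passed. With the epithelium score Reg3g at 5% RPS (3.17) and Reg3a, Reg3b, and Reg3g at 10% RPS (1.83, 3.01, and 2.42) did not pass. Without the 3 libraries outside the number run Reg3g at 10% RPS (3.09) did not pass, the slopes of Reg3b (0.52) and Reg3g (0.48) passed, and r of Reg3g with Reg3a within diets was 0.507 and did not pass. With diets as ranks the slopes of Reg3b (1.25) and Reg3g (1.24) passed, and over the starch diets alone that of Reg3a (0.066) did not. The genes that varied with Reg3a, Reg3b, and Reg3g numbered 759, 300, and 431 with the epithelium score in place of 1185, 1692, and 1752. Without the 3 libraries they numbered 442, 813, and 927, and with diet in the fit 516, 64, and 76.

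With 1 library left out, log2 differences at 2% RPS were 0.84 to 1.73 for Reg3a, 2.24 to 4.59 for Reg3b, and 1.47 to 4.17 for Reg3g. At 5% RPS they were 1.87 to 2.32 (2.34 without 5% RPS replicate 4, where Reg3a had no adjusted p), 4.45 to 5.64, and 3.94 to 5.66, and at 10% RPS 1.83 to 2.27, 3.8 to 4.99, and 3.19 to 4.89. Slopes were 0.14 to 0.21, 0.21 to 0.41, and 0.24 to 0.38. Genes that varied with Reg3a were 755 to 1558, and 248 to 1174 with diet in the fit. For Reg3b they were 1089 to 1984, and 127 to 743, and for Reg3g 1117 to 2111, and 160 to 688. The difference of Reg3a between 10 and 5% RPS ran from -0.21 to 0.21 and turned positive without 5% RPS replicate 2 (0.21) or 3 (0.12) or 10% RPS replicate 1 (0.10), and passed in none. The r of Reg3g with Reg3a within diets was 0.511 to 0.808. Genes called higher numbered 3, 42, and 66 at 2, 5, and 10% RPS and 301 in the trend, against 0, 7, 28, and 93 with edgeR and 1, 3, 21, and 84 with the epithelium score. They numbered 41 at 10% RPS and 157 in the trend without the 3 libraries, and 74 in the trend over the starch diets alone. Reg3a had no adjusted p from DESeq2 in 12 fits, which were not counted as lost calls.

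No paired analysis was possible because the labels give the diets no shared replicate numbers.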
